A study of Mus musculus with 5 samples.

Results

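Clec4n, Clec4e, Clec4d and Clec4b1 are mouse genes for C-type lectin receptors of myeloid cells that lie in one gene cluster, and they were taken by name from a single-cell count table. The table listed all 4 among its 21617 genes. It held 41191 mouse cells from 5 libraries made with a droplet kit that reads the 3′ ends of polyadenylated RNA and tags each captured transcript with a unique molecular identifier (UMI). The control library held macrophages drawn out with thioglycollate, an irritant, and 4 libraries held cells of foreign body granulomas, the inflamed tissue that walls off an implant, made with sponge or with silk and taken at 2 weeks or at 4 weeks. Each group was 1 library, and the labels give no strain, sex, age, genotype or number of animals. Macrophages that respond to an irritant are a reference unlike a resting tissue, and the control differed from the granulomas in the stimulus, the tissue and the way the cells were obtained, which cannot be told apart here. The questions asked were where these receptors were found among myeloid cells and neutrophils, and how far their levels differed between granulomas and control, between silk and sponge, and between the time points.

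C-type lectin receptors bind sugars and lipids on microbes and on dead cells. Clec4n encodes Dectin-2, which binds mannose-rich fungal glycans, and Clec4e encodes Mincle, which binds mycobacterial cord factor and a nuclear protein released by dying cells. Clec4d encodes MCL, a partner that forms complexes with Mincle and with Dectin-2 and supports their presence at the cell surface, and Clec4b1 encodes DCAR, which binds mycobacterial mannosylated lipids. These receptors have short tails and signal through the Fc receptor gamma chain (Fcer1g), the kinase Syk and the CARD9, BCL10 and MALT1 module, which turns on NF-kB and genes for inflammatory cytokines. Clec4e is known as a gene that activated macrophages switch on.

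In the GENCODE M21 annotation of GRCm38, the members lie on chromosome 6 in the order Clec4b1 (ENSMUSG00000030147.12, chr6:123049962-123071555, plus strand), Clec4n (ENSMUSG00000023349.14, chr6:123229843-123247021, plus strand), Clec4d (ENSMUSG00000030144.4, chr6:123262111-123275265, plus strand) and Clec4e (ENSMUSG00000030142.10, chr6:123281789-123289870, minus strand). Gaps of 15.1 kb between Clec4n and Clec4d and of 6.52 kb between Clec4d and Clec4e separate the closest neighbours, whereas Clec4a2 and Clec4b2 lie between Clec4b1 and Clec4n. The stretches before the start sites of 3 members (RefSeq, GRCm38.p6) are shown because these genes share a short string there, although Clec4b1 went another way than Clec4d and Clec4e in the counts. The capitals mark TTCCTCTTT, the reverse complement of AAAGAGGAA. The stretches are chr6:123289872-123290121 (minus strand) for Clec4e, chr6:123261857-123262122 (plus strand, with 16 bases after the start site) for Clec4d and chr6:123049712-123049961 (plus strand) for Clec4b1.
Clec4e: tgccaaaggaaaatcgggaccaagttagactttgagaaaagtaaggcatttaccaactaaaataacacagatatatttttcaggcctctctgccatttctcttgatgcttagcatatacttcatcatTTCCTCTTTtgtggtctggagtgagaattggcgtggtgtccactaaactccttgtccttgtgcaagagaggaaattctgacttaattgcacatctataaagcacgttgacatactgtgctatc
Clec4d: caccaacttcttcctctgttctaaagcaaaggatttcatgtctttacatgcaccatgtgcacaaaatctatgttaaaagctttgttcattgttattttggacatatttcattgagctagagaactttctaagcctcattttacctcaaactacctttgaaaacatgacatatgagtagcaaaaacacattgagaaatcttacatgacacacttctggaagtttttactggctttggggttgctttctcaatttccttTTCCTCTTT
Clec4b1: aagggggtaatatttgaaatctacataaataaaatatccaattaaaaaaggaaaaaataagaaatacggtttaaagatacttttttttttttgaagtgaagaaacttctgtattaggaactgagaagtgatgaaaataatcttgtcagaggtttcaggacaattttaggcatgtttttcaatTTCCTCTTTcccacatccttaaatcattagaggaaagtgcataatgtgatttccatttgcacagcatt

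The string AAAGAGGAA was chosen after the promoters were viewed, and it holds GAGGAA, a form of the core that ETS-family factors such as PU.1 bind. Windows of 300 bases, from 250 before to 50 after the start site, were searched on both strands. TTCCTCTTT began 123 bases before the start site of Clec4e, 68 before that of Clec4b1 and 8 after that of Clec4d. Of 32851 such windows of 27025 genes, 1.39% held AAAGAGGAA, and 6 of the 7 genes of the chromosome 6 cluster with a window held it. GAGGAA was in all 3 member windows and in 28.3% of all windows. TTGCNNAA, the pattern that C/EBP factors bind, was found as TTGTGCAA at 66 bases before the start site of Clec4e and in 10.8% of all windows. TGANTCA, the pattern that AP-1 binds, was in 7.81% of all windows and in none of the 3 member windows. A match describes the letters of a window.

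The granuloma libraries held 12347 and 7701 cells for sponge and 10231 and 1873 for silk at 2 and 4 weeks, and the control held 9039, with 3818 to 7109 UMIs in the median cell of a library. Cell classes and subclusters are those of the authors' deposited annotation, which names the subclusters of monocytes, macrophages and dendritic cells C1 to C10 and those of neutrophils N1 to N3. Mo-Mac cells, that is monocytes, macrophages and dendritic cells with C9 left out, numbered 7783 in the control, against 7113, 4605, 7350 and 1045 in granulomas, given here and below in the order sponge 2 weeks, sponge 4 weeks, silk 2 weeks, silk 4 weeks. Neutrophils numbered 12 in the control, too few for a level, and 1044, 330, 814 and 69 in the granulomas. The 9 macrophage markers summed to 25700 CPM (counts of UMIs per 1000000 UMIs of the cell group) in control Mo-Mac cells and to 16400 to 21300 in granuloma Mo-Mac cells. The 10 neutrophil markers summed to 74600 to 121000 CPM in neutrophils and to 99.3 to 345 in Mo-Mac cells. N3 stood apart from its label, with macrophage markers at 13200 and 13700 CPM beside neutrophil markers at 34800 and 16600 in the 2-week sponge and silk libraries. C9 was set aside because mast cell and basophil markers summed to 9740 CPM in its control cells but to 74.2 to 707 in the granulomas. Control Mo-Mac cells lay in C1, C2 and C10 and granuloma Mo-Mac cells in C3 to C8, so that no subcluster other than C9 had 50 cells on both sides. A barcode sequence found in more than 1 library was carried by 306 cells, over 153 sequences.

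Clec4n, Clec4e and Clec4d were all higher in Mo-Mac cells of every granuloma than in the control, by widely different amounts, and Clec4b1 was not. Clec4n, the Dectin-2 gene, stood at 2.83 CPM for control cells, and at 463, 522, 780 and 413 in the granulomas. The control value rested on 210 UMIs in 7783 cells, so it was near absence. Clec4e, the Mincle gene, measured 9.42 CPM in control cells, against 533, 461, 522 and 314 in the granulomas. Clec4d, the MCL gene, had a clear control level of 123 CPM, against 645, 453, 652 and 419. Clec4b1, the DCAR gene, measured 16.5 CPM in control cells, against 11.8, 13.8, 7.92 and 37.2, so that the control value lay inside the granuloma range.

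**Figure D1:**
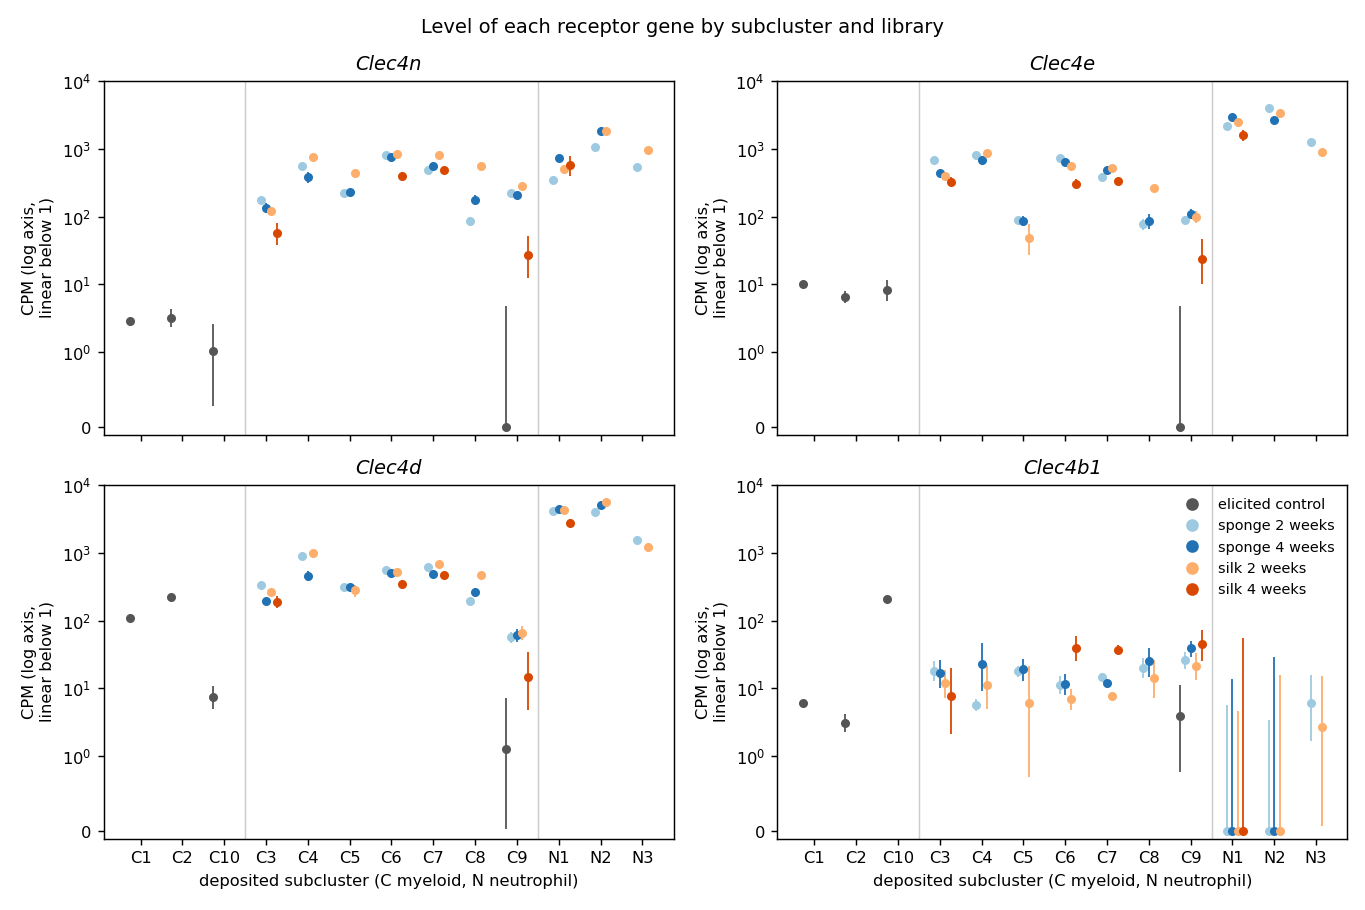
CPM (log axis, linear below 1) of the 4 genes by the authors' subclusters, 1 point for each library with at least 50 cells of that subcluster and bars for the 95% counting intervals. Clec4n and Clec4e lie under 11 in the control subclusters C1, C2 and C10, Clec4d reaches 219 in C2, and Clec4b1 is highest in C10.

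As log2 ratios to the control, with 95% intervals that cover counting error alone, Clec4n was higher by 7.35 (7.16 to 7.56), 7.53 (7.33 to 7.73), 8.11 (7.91 to 8.31) and 7.19 (6.99 to 7.40). Clec4e was higher by 5.82 (5.72 to 5.93), 5.61 (5.50 to 5.73), 5.79 (5.68 to 5.90) and 5.06 (4.93 to 5.18). Clec4d was higher by 2.38 (2.35 to 2.42), 1.87 (1.83 to 1.92), 2.40 (2.37 to 2.43) and 1.76 (1.70 to 1.83). The order Clec4n, Clec4e, Clec4d therefore held in all 4 granulomas, and the intervals of these genes did not meet within any granuloma. Clec4b1 differed by -0.48 (-0.64 to -0.33), -0.25 (-0.45 to -0.07), -1.05 (-1.23 to -0.88) and 1.18 (0.97 to 1.38). These 4 comparisons share the control library, and with 1 library in each group no test between conditions was possible.

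A gene was counted as higher when log2 of the ratio, with 10 CPM added to both values, was at least 1 and the higher library held at least 100 UMIs and 50 CPM. By this rule 3 of the 4 members were higher than the control in each granuloma, beside 11.9%, 11.0%, 10.9% and 9.97% of the genes that met the count minimum. The same 3 members were higher in all 4 granulomas, beside 5.49% of 3625 genes. Clec4n and Clec4e, at 2.83 and 9.42 CPM in the control, met the minimum only through the granulomas. They could therefore be tested only where they were higher, whereas Clec4d met the minimum in the control as well. Clec4b1 did not reach the count minimum. Ranked from the highest ratio among 3321 to 3384 genes, Clec4n was 10th, 4th, 3rd and 4th, Clec4e was 14th, 6th, 7th and 10th, and Clec4d was 136th, 162nd, 105th and 171st. Clec4n and Clec4e were thus near the top of the whole table in each granuloma, and Clec4d was further down.

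Several measures moved with these ratios. Granuloma Mo-Mac cells had fewer UMIs in the median cell (3078 to 4729) than control cells (7749). The monocyte marker list summed to 488 CPM in the control and to 2290, 894, 791 and 960 in the granulomas. The immediate early list, whose genes rise when tissue is taken apart, summed to 2720 in the control and to 8820, 9020, 6970 and 9600. In each granuloma 7 to 12 of its tested genes were counted as higher, beside 11.9%, 11.0%, 10.9% and 9.97% of all genes tested. In silk at 2 weeks 1 was counted as lower, beside 5.85%. Ier3, Nr4a1, Egr1, Hspa1a and Hspa1b, under 50 CPM in the control, met the minimum only through a granuloma. Fibroblast markers summed to 0.659 CPM in control Mo-Mac cells, with Lum at 0, and to 432, 578, 112 and 68.4 in granuloma Mo-Mac cells. In both sponge libraries 3 of 3 tested were counted as higher (medians 3.76 and 4.11), beside 11.9% and 11.0% of all genes tested. These markers met the minimum only through the granulomas, so they could be tested only where they were higher. The part of these measures in the ratios was not tested. Neutrophil markers were higher in granuloma Mo-Mac cells as well (160 to 345 CPM against 99.3). A filter on these markers, with Mmp9 left out of the list, was then applied. Without the Mo-Mac cells that carried 3 or more UMIs of the remaining markers, Clec4n was higher than the control by 7.42, 7.60, 8.18 and 7.15, Clec4e by 5.77, 5.58, 5.75 and 4.96, and Clec4d by 2.39, 1.94, 2.40 and 1.76.

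**Figure D2:**
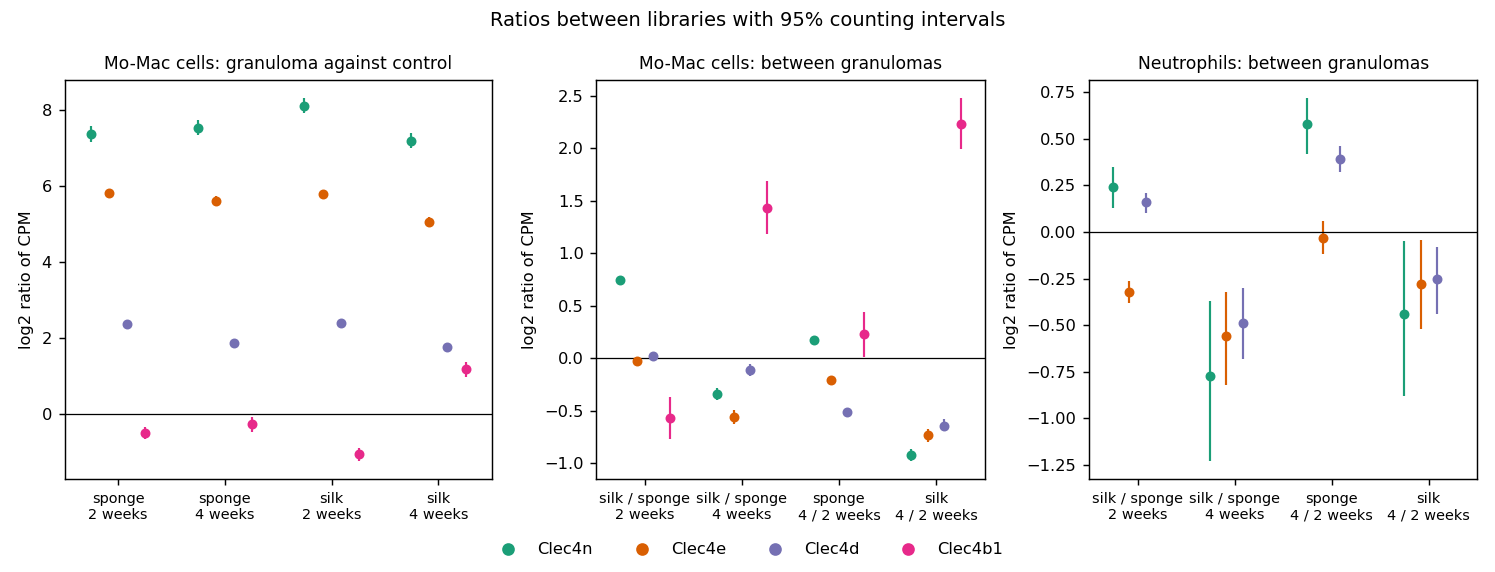
Log2 ratios of CPM between libraries for the 4 genes, with bars for the 95% counting intervals, in Mo-Mac cells against the control (left), in Mo-Mac cells between granulomas (middle) and in neutrophils between granulomas (right). Clec4n, Clec4e and Clec4d keep the same order above 0 in the left panel, and Clec4b1 in the middle panel goes from -0.57 for silk against sponge at 2 weeks to 1.43 at 4 weeks.

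The shares of cells with a UMI gave the same picture. In the control 2.43% of Mo-Mac cells (2.1 to 2.8, exact binomial 95% interval) had a UMI of Clec4n, and in the granulomas 60.2%, 55.7%, 71.1% and 43.9% did. Clec4e was seen in 5.92% (5.41 to 6.47) of control cells and in 59.6%, 52.0%, 60.1% and 42.0%. Clec4d was seen in 41.2% (40.1 to 42.3) of control cells and in 71.1%, 60.8%, 72.8% and 55.9%. With each cell thinned to 500 UMIs, which removes the difference in depth, the Clec4n share was 0.104% for the control against 20.3%, 21.4%, 28.2% and 13.8%. The thinned Clec4e share was 0.389% against 22.2%, 18.9%, 20% and 12%, and the thinned Clec4d share was 4.87% against 24.4%, 19.1%, 23.6% and 14.9%. Shallower cells were left out of the thinned shares: 76 from the control library, then 0, 89, 72 and 81.

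Free RNA sets the floor of such shares. In fibroblasts of the same granulomas, which should lack these receptors, Clec4n was seen in 11.0%, 8.26%, 12.7% and 0% of cells (the last allows 1.09%), with 14348, 11192, 11902 and 6909 UMIs in the median cell. At 500 UMIs the fibroblast share of Clec4n in the first 3 libraries was 0.865%, 1.62% and 2.13%, far under that of Mo-Mac cells. Clec4e was seen in 14.5%, 8.63%, 13.2% and 0.362% of fibroblasts and Clec4d in 15.4%, 8.38%, 14.4% and 1.81%. In the control, Clec4n and Clec4e were seen in 0% of T and NK cells, which allows a share of 0.817%, and Clec4d in 4.09% of them and in 4.44% of B cells. The Clec4d share of control Mo-Mac cells lay well above both.

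**Figure D3:**
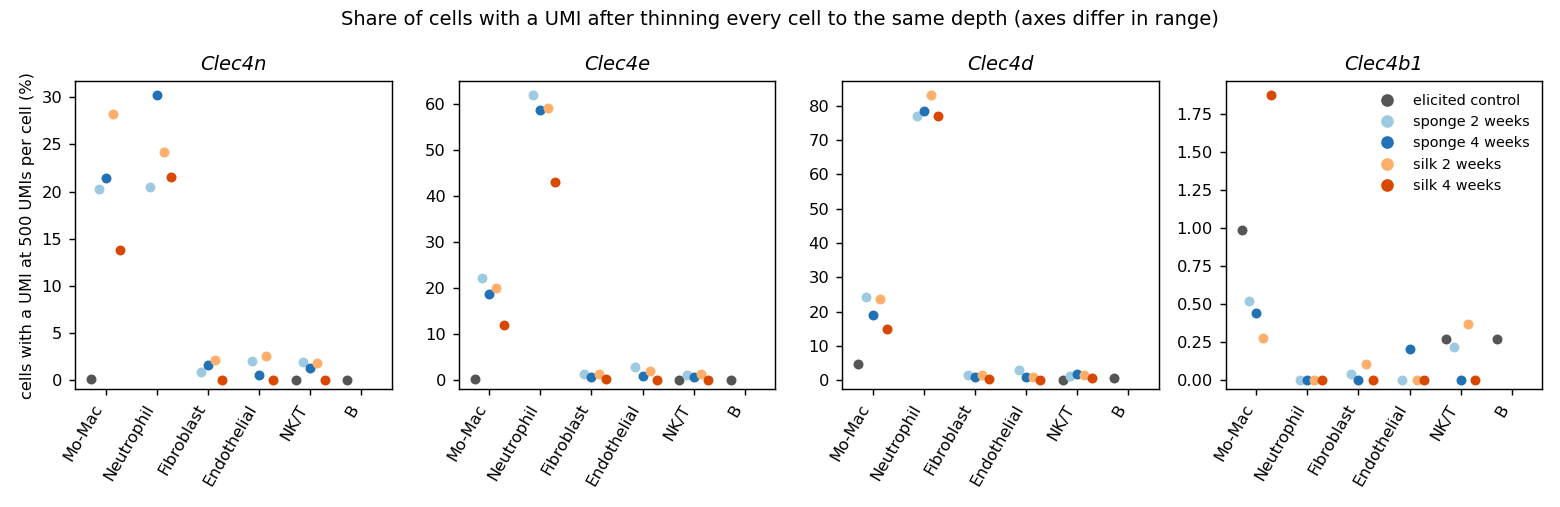
Percent of cells, thinned to 500 UMIs each, with a UMI of each gene (axes differ in range), in Mo-Mac cells, neutrophils, fibroblasts, endothelial cells, T or NK cells and B cells, 1 point for each library with at least 50 cells. Clec4d lies from 76.9% to 83.0% in neutrophils, and the fibroblasts, endothelial, T, NK and B cells stay at or under 2.96% for each gene.

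Clec4d was the member already present in control macrophages, and its control level was spread unevenly. It stood at 109 CPM in C1 (6476 cells), at 219 in C2 (706 cells) and at 7.45 in C10 (550 cells). It was seen in 39.5% (38.3 to 40.7) of C1 cells and 86.1% (83.3 to 88.6) of C2 cells, but in 4.36% of C10 cells, which is no more than in control B cells. Clec4n stayed at 2.82, 3.17 and 1.03 CPM in C1, C2 and C10, and Clec4e at 10.1, 6.49 and 8.22. The level of Clec4d in C2 lay within the range of the granuloma subclusters C3 (189 to 335) and C8 (194 to 462).

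Clec4b1 followed another pattern, with most of its control counts in C10. It stood at 209 CPM in C10 and was seen in 61.8% (57.6 to 65.9) of those cells, against 5.98 CPM and 4.0% in C1 and 3.10 CPM and 4.82% in C2. C10 supplied 813 of the 1224 Clec4b1 UMIs of control Mo-Mac cells. The dendritic cell markers of C10 summed to 910 CPM, of which Cd209a, a lectin of monocyte-derived dendritic cells, made up 710 and Flt3, the receptor of a dendritic cell growth factor, 73.7, while Ccr7 stood at 0.257. Its macrophage markers summed to 11200. Silk at 4 weeks held 8 C10 cells, too few for a level. In the granuloma subclusters C3 to C8 Clec4b1 lay between 5.71 and 39.7 CPM, and in fibroblasts at 1.08 or less. Over all Mo-Mac cells it was seen in 8.3% of control cells and in 4.47%, 4.0%, 2.79% and 10.9% of granuloma cells, against 0.634% or less of fibroblasts.

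C9, which was kept out of the class, held 0 UMIs of Clec4n and of Clec4e in its 129 control cells and 1.28 CPM of Clec4d. In the granulomas Clec4n stood there at 219, 207, 287 and 26.7 CPM, Clec4e at 89.4, 110, 100 and 23.7, and Clec4d at 56.9, 61.0, 66.0 and 14.8. Clec4b1 stood at 26.0, 38.7, 21.6 and 44.5 CPM in the same cells, whose dendritic cell markers summed to 3210, 6410, 4010 and 5120. C9 thus lay low in Clec4d and at the upper end of the granuloma subclusters in Clec4b1.

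Among granuloma subclusters Clec4n, ordered by the median over libraries, stood highest in N2 (1058 to 1856 CPM), then in C6 (395 to 838), N3 (545 to 969), C4 (380 to 756), N1 (349 to 728), C7 (479 to 814), C5 (220 to 433), C8 (85.0 to 563) and C3 (56.6 to 177). N2 was the sole subcluster whose range lay clear of all the others. From C6 to C7 each range overlapped the next, so their order is not resolved. C3, which carried the highest monocyte marker sum (7430 to 10200 CPM), had less Clec4n than C4, C5, C6 and C7 in every library that held both.

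Clec4e, by the same order, stood highest in N2 (2643 to 4028 CPM) and N1 (1574 to 2907), whose ranges overlapped, then in N3 (894 to 1263), C4 (674 to 878), C6 (306 to 727), C7 (329 to 528), C3 (326 to 672), C5 (47.8 to 87.6) and C8 (76.7 to 266). C5 stood well under C4, C6, C7 and C3, with no overlap. In C5 Clec4e was seen in 22.9%, 15.1% and 14.4% of cells in sponge at 2 and 4 weeks and silk at 2 weeks, near the fibroblast shares of 14.5%, 8.63% and 13.2%. At 500 UMIs these C5 shares were 4.13%, 3.45% and 1.92%, against 1.43%, 0.746% and 1.49% in fibroblasts. The silk value is too near that of fibroblasts to be read as expression.

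Clec4d stood highest in N2 (3986 to 5602 CPM) and N1 (2758 to 4377), then in N3 (1229 to 1546), C4 (458 to 984), C7 (475 to 689), C6 (351 to 551), C5 (278 to 316), C8 (194 to 462) and C3 (189 to 335). N2 and N1 overlapped, and N3 lay clear of both and of C4. C4, C7 and C6 overlapped in turn, C5 lay under C6 with no overlap, and C5, C8 and C3 overlapped in turn. The gap of C5 from the subclusters above it was far narrower for Clec4d than for Clec4e.

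The balance of Clec4e to Clec4n separated several subclusters whose levels overlapped. As log2 of Clec4e UMIs over Clec4n UMIs, a ratio to be compared across cells and not as a ratio of molecules per gene length, it was 1.93, 1.70, 1.70 and 2.51 in C3. C4 gave 0.53, 0.82 and 0.21 in the 3 libraries with 50 cells. C6 gave -0.13, -0.24, -0.61 and -0.37 and C7 -0.33, -0.21, -0.62 and -0.54, so these subclusters overlapped each other. C5 leaned furthest to Clec4n, at -1.33, -1.42 and -3.14, the last on 16 Clec4e UMIs. N1 leaned furthest to Clec4e in both sponge libraries and in silk at 2 weeks, at 2.63, 2.0 and 2.30. It gave 1.45 in silk at 4 weeks, while N2 gave 1.93, 0.51 and 0.88. C3, C4, the pair C6 and C7, and C5 did not overlap in this balance. In sponge at 2 and 4 weeks and silk at 2 weeks, C8 gave -0.15, -1.04 and -1.08 and C9 gave -1.29, -0.91 and -1.51. C8 thus overlapped the pair C6 and C7, and C9 overlapped C5.

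**Figure D4:**
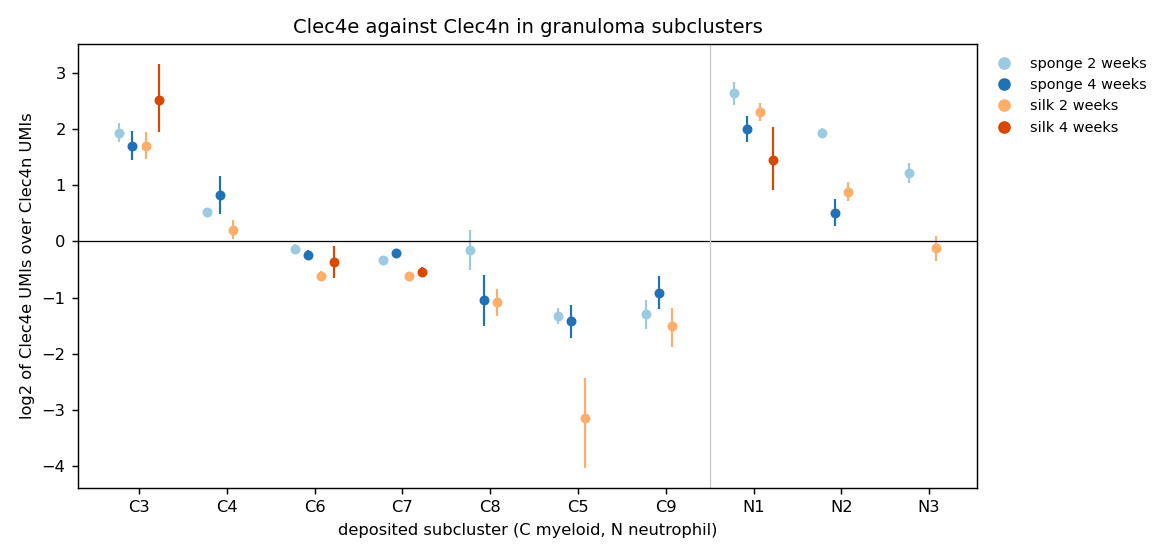
Log2 of Clec4e UMIs over Clec4n UMIs by subcluster, 1 point for each granuloma library with at least 50 cells and bars for the 95% counting intervals. C3 and N1 lie above 1, C6 and C7 just under 0, and C5 under -1.

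In neutrophils 3 members were abundant and the other was close to absent. Clec4d stood at 3343, 4377, 3724 and 3119 CPM and was seen in 95.8%, 93.9%, 96.2% and 92.8% of cells, although the median neutrophil held 1083 to 1892 UMIs. Clec4e stood at 2757, 2694, 2208 and 1819 CPM, seen in 86.9%, 76.4%, 81.3% and 65.2% of cells. Both were several times their Mo-Mac level in every granuloma. Clec4n stood at 724, 1080, 855 and 626 CPM, seen in 45.1%, 48.2%, 40.8% and 33.3% of cells, so that neutrophils and Mo-Mac cells differed far less for Clec4n than for its neighbours. Clec4b1 had 5 UMIs in all neutrophils, 4 in sponge and 1 in silk at 2 weeks, and each was in N3, the subcluster with macrophage markers. N1 and N2 held 0, and in N1 the limits that a count of 0 allows were 0.824%, 1.31%, 0.502% and 5.08% of cells.

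Within neutrophils Clec4n parted N1 from N2. It stood at 349, 728 and 502 CPM in N1 and at 1058, 1856 and 1851 in N2 in sponge at 2 and 4 weeks and silk at 2 weeks. N2 was thus higher in each of the 3 libraries that held both. Clec4d in the same libraries stood at 4118, 4377 and 4334 in N1 and 3986, 5068 and 5602 in N2, close together in sponge at 2 weeks. Clec4e in N2 was higher than in N1 in both 2-week libraries and lower in sponge at 4 weeks (2643 against 2907).

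Silk and sponge differed in opposite directions at the time points for Clec4n and for Clec4b1. In Mo-Mac cells at 2 weeks Clec4n was higher in silk than in sponge by 0.75 on the log2 scale (0.73 to 0.78), while Clec4e and Clec4d were nearly level, at -0.03 (-0.06 to -0.01) and 0.02 (-0.01 to 0.04). At 4 weeks silk was lower for Clec4n (-0.34, -0.40 to -0.28), Clec4e (-0.56, -0.63 to -0.49) and Clec4d (-0.11, -0.17 to -0.05). Clec4b1 did the reverse: it was lower in silk at 2 weeks by -0.57 (-0.77 to -0.37) and higher at 4 weeks by 1.43 (1.18 to 1.69). None of the members was counted as 2-fold different, beside 1.75% of genes counted higher and 4.65% lower in silk at 2 weeks, and 0.42% and 0.614% at 4 weeks. Clec4b1 was under the count minimum. Other markers of the same cells moved too: in silk against sponge at 2 weeks 3 of 6 tested monocyte markers (median -1.38), 4 of 9 macrophage markers (-0.96) and 3 of 3 fibroblast markers (-1.54) were lower, and at 4 weeks 1 of 6 (-0.18), 1 of 9 (0.27) and 3 of 3 (-2.61). Their part in the member ratios was not tested.

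From 2 to 4 weeks the members parted in sponge and kept together in silk, Clec4b1 aside. In sponge, 4 weeks against 2 weeks, Clec4n differed by 0.17 (0.14 to 0.21), Clec4e by -0.21 and Clec4d by -0.51. In silk the same comparison gave -0.92 (-0.98 to -0.86) for Clec4n, -0.73 for Clec4e and -0.64 for Clec4d. Clec4b1 was higher at 4 weeks in silk by 2.23 (1.99 to 2.48) and in sponge by 0.23 (0.01 to 0.44). Again none was counted, beside 1.86% of genes higher and 4.04% lower in sponge and 0.833% and 0.961% in silk. The 4 ratios of materials and times are made from 4 libraries, so each library enters 2 of them.

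Libraries differed in their mix of subclusters, so the comparisons were also made inside C3 to C8 and N1 to N3. Of 73 member ratios that met the count minimum there, 7 passed the 2-fold limit, all described below, beside 4.61% of the gene ratios in the same 25 comparisons. In C7, with 1122, 2078, 4461 and 496 cells, Clec4n was higher in silk than in sponge by 0.77 at 2 weeks and lower by -0.21 at 4 weeks, close to the whole class. Clec4e in C7 gave 0.47 at 2 weeks, where the class gave -0.03. Clec4b1 in C7 gave -0.91 at 2 weeks and 1.62 at 4 weeks, and was seen in 7.4%, 4.72%, 3.41% and 16.5% of C7 cells. In C6 silk against sponge at 4 weeks gave -0.95 for Clec4n, -1.08 for Clec4e and 1.79 for Clec4b1, and Clec4e was the 1 member counted as lower, beside 2.88% of genes. The high Clec4b1 of silk at 4 weeks was therefore present in both C6 (39.7 CPM) and C7 (36.9), against 7.03 to 14.4 in the other granulomas. In C3, the remaining Mo-Mac subcluster of that library with 50 cells, it stood at 7.81 CPM on 4 UMIs, against 18.3, 16.5 and 11.9.

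The same library had the lowest Clec4e and Clec4d of the 4 granulomas in each of C3, C6 and C7, but some counting intervals met. For Clec4d it met sponge at 4 weeks in C3 (154 to 231 against 170 to 222 CPM) and in C7 (455 to 495 against 478 to 501). For Clec4e it met silk at 2 weeks in C3 (278 to 379 against 364 to 426). Clec4n in C6 of silk at 4 weeks was lower than in silk at 2 weeks by -1.08, counted beside 3.2% of genes, and in C3 it was lower than in sponge at 4 weeks by -1.23, counted beside 0.954%. This library held the fewest cells, 1873, and its fibroblasts had the lowest shares of Clec4n, Clec4e and Clec4d among the granulomas. These fibroblasts also had the fewest UMIs in the median cell (6909), and the part of either in the ratios was not tested. In C8, by contrast, silk at 2 weeks was higher than sponge at 2 weeks for Clec4n by 2.73 (2.45 to 3.01), Clec4e by 1.79 (1.47 to 2.12) and Clec4d by 1.25 (1.03 to 1.47), all 3 counted beside 3.82% of genes. C8 held 61 silk and 133 sponge cells there, with macrophage markers at 19900 against 11500 CPM. Its neutrophil markers, a list that includes Mmp9, summed to 609 against 1430, and the share of Mmp9 in these sums was not examined. The part of these marker differences in the member ratios was not tested.

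In neutrophils Clec4n again changed sign between the times. Silk against sponge gave 0.24 (0.13 to 0.35) at 2 weeks and -0.77 (-1.23 to -0.37) at 4 weeks for Clec4n, -0.32 and -0.56 for Clec4e, and 0.16 and -0.49 for Clec4d. The median over all genes that met the minimum, with 10 CPM added, was 0.15 at 2 weeks and -0.33 at 4 weeks. From 2 to 4 weeks sponge gave 0.58, -0.03 and 0.39 for Clec4n, Clec4e and Clec4d and silk gave -0.44, -0.28 and -0.25, where the medians of all genes were -0.23 and -0.44. No member was counted, beside 3.38% of genes higher and 4.05% lower for silk at 2 weeks, 0.743% and 12.6% at 4 weeks, 5.86% and 12.4% for sponge over time, and 0.564% and 21.8% for silk over time. Without N3, Clec4n at 2 weeks gave 0.04. Within N1, N2 and N3 it was higher in silk at 2 weeks by 0.52, 0.81 and 0.83, while N2, the subcluster highest in Clec4n, made up 574 of 1044 sponge and 157 of 814 silk neutrophils. Within N1 it was higher in sponge at 4 than at 2 weeks by 1.06, counted beside 11.4% of genes.

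The receptors' adaptor and kinase genes were detected in the control and differed from the granulomas in both directions, while many genes further down the pathway were higher in granulomas. Fcer1g stood at 1850 CPM in control Mo-Mac cells and at 2200, 1590, 1530 and 1750 in the granulomas. Syk stood at 299 in the control and at 177, 167, 196 and 170. Syk was thus lower in all 4, by -0.76, -0.84, -0.61 and -0.81, short of the 2-fold limit. Of the 10 adaptor and kinase genes, 9 or 10 met the count minimum. Counted as higher were 0, 1, 2 and 2 of them, beside 11.9%, 11.0%, 10.9% and 9.97% of all genes tested. Counted as lower were 0, 1, 1 and 0, beside 5.67%, 5.68%, 5.85% and 5.15%. The list had medians of 0.22, -0.20, -0.09 and -0.08 beside -0.01, 0.02, 0.05 and -0.03 for all genes tested. The genes counted as higher were Prkcd, a protein kinase C upstream of CARD9, at 263 CPM in the control and 279, 621, 611 and 630 in granulomas, and Fgr, a Src-family kinase, at 64.3 and 103, 129, 191 and 150. The gene counted as lower was Tyrobp, the DAP12 adaptor, at 3350 and 1830, 1580, 1520 and 2000. Card9, the scaffold itself, stood at 6.56 in the control and at 5.59, 12.9, 7.92 and 14.4, under the minimum.

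Of the 9 genes in the list of the CARD9 module and NF-kB, 7 met the count minimum and 5 were higher in each granuloma. Over all genes tested, 11.9%, 11.0%, 10.9% and 9.97% were higher. The list had medians of 1.51, 1.54, 1.37 and 1.5, beside -0.01, 0.02, 0.05 and -0.03 for all genes tested. Malt1, Rel and Nfkb2, at 42.9, 43.4 and 20.1 CPM in the control, met the minimum only through the granulomas. These 3 could therefore be tested only where they were higher, which bears on the count and the medians. Malt1, the protease of the module, was higher by 3.15, 3.40, 3.19 and 3.53, and the NF-kB subunit gene Rel by 2.67, 2.30, 2.31 and 2.61. Nfkbia, the NF-kB inhibitor that NF-kB itself induces, was higher by 2.61, 1.93, 1.52 and 2.04. Among the 8 negative regulators 5 met the count minimum, and 2 of these were higher in each granuloma. They were Tnfaip3, the A20 ubiquitin editor, by 3.42, 3.24, 2.81 and 3.31, and Socs3, an inhibitor of cytokine signalling, by 3.19, 2.68, 2.74 and 2.55. At 22.0 and 22.2 CPM in the control, they too met the minimum only through the granulomas. None of these genes is induced by lectin receptors alone.

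Of the 15 output genes, 9, 8, 8 and 8 met the count minimum, and 9, 7, 6 and 7 of these were higher than in the control. Their medians were 3.74, 3.24, 3.11 and 3.0. Over all genes tested, 11.9%, 11.0%, 10.9% and 9.97% were higher. Genes under 50 CPM in the control, such as Il1b, Tnf and Cxcl2, met the minimum only through a granuloma. They could therefore be tested only where they were higher. Il1b, the interleukin-1 beta gene, measured 3.11 CPM in control cells, against 1820, 581, 882 and 600. Cxcl2, a chemokine that draws neutrophils, stood at 38.7 and at 4040, 2110, 1890 and 2510. Both were highest in sponge at 2 weeks. Tnf stood at 5.7 and at 200, 86.5, 64.0 and 92.3. In silk against sponge at 2 weeks 8 of the 9 tested output genes were lower, beside 4.65% of all genes tested. Their median was -1.5 beside 0.06 for all genes, while Clec4n was higher by 0.75 and Clec4e and Clec4d lay near 0. At 4 weeks 0 of 8 were counted in either direction.

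Other receptors and known inducers of Clec4e were compared in the same cells. Among other pattern receptors Tlr2 was higher than in the control by 3.05, 2.88, 3.18 and 2.59 and Cd14 by 2.75, 2.25, 2.69 and 2.36, whereas Tlr4 gave -0.84, -1.38, -1.16 and -1.87. Among other lectin receptors of myeloid cells Clec5a was higher by 2.98, 3.22, 3.75 and 3.16 and Clec10a, a galactose-binding lectin, gave -0.65, -1.72, -3.11 and -1.78. High granuloma levels were thus not shared by all lectin receptors. Of the transcription factors known to act on Clec4e, Cebpb measured 772 CPM in control cells, against 1740, 1690, 2590 and 1060, and Hif1a at 119 and at 462, 328, 614 and 228. Both were highest in silk at 2 weeks, and both were lower in silk at 4 than at 2 weeks, by -1.29 and -1.43. They were the 2 of 2 tested genes of that list of 5, beside 0.961% of all genes tested. The others, under the count minimum, went both ways from 2 to 4 weeks in silk. Cebpd stood at 19.6 and 37.5 CPM, Ticam1 at 11.4 and 13.7, and Myd88 at 49.6 and 35.2.

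**Figure D5:**
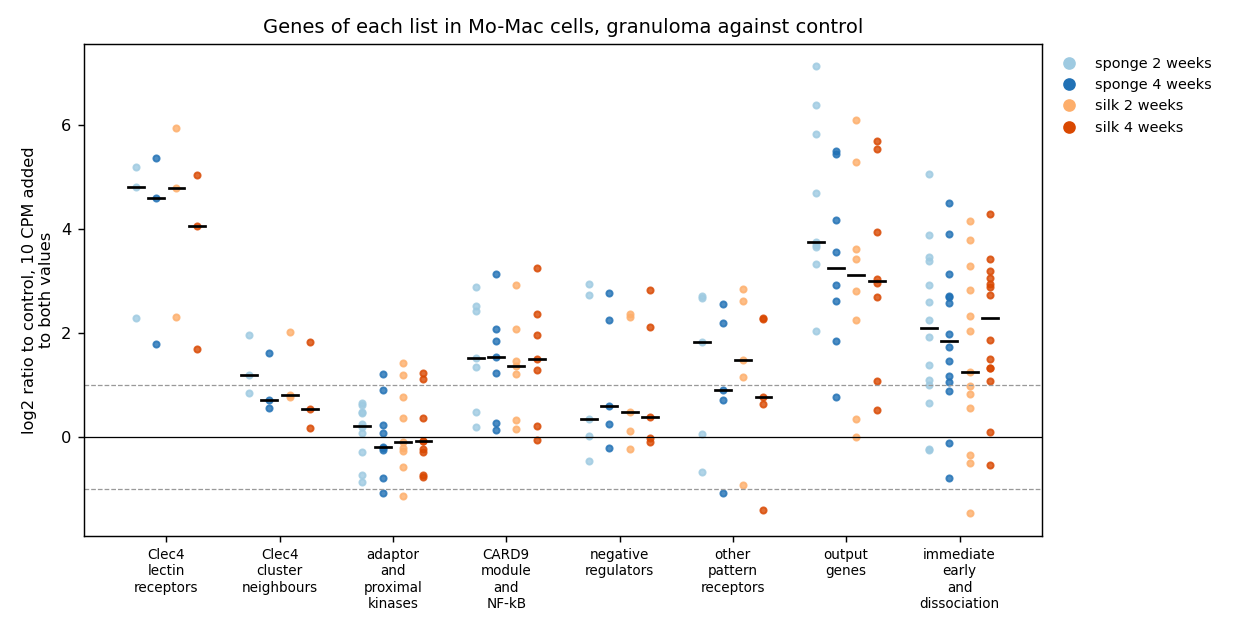
Log2 ratios of granuloma to control in Mo-Mac cells, with 10 CPM added to both values, for the genes of each list that met the count minimum; points are genes, short bars are medians and dashed lines mark the 2-fold limit. Adaptor and kinase genes spread around 0, and medians of the output genes lie from 3.0 to 3.74.

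The other genes of the chromosome 6 cluster differed less from the control than Clec4n and Clec4e. Clec4a2, an inhibitory receptor, stood at 60.9 CPM in control Mo-Mac cells and at 265, 206, 275 and 241, higher by 2.12, 1.76, 2.17 and 1.98. Clec4a1 stood at 170 and at 400, 283, 303 and 193, and Clec4a3 at 153 and at 283, 228, 267 and 227. Of these 3 tested neighbours 2 were counted as higher in sponge at 2 weeks and 1 in each other granuloma. The shares of all genes tested that were counted as higher were 11.9%, 11.0%, 10.9% and 9.97%. Clec4a4 and Clec4b2 reached at most 0.444 and 0.048 CPM, which is close to absence.

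The share of single cells with both Clec4n and Clec4e was set beside the share that their separate shares would give, and the result depended on the subcluster. In cells of C7 thinned to 500 UMIs, the share with both, divided by the product of the single shares, was 1.45, 1.31, 1.2 and 1.18. In C6 of the first 3 libraries it was 1.31, 1.34 and 1.21, and in C4 it was 1.15 in sponge and 1.31 in silk at 2 weeks. C3 and C5 of sponge at 2 weeks gave 1.0 and 0.664, on 9 and 4 cells with both genes. In C7 of sponge at 2 weeks, for example, 5.79% of cells had both, where the product was 3.98%. In N1 the ratio was 0.905, 1.19 and 1.07, and in N2 1.07, 1.0 and 0.963, so neutrophils lay around 1. Clec4e and Clec4d gave 1.23, 1.18, 1.17 and 1.18 in C7. These ratios come from few UMIs in each cell, and a mixture of cells with much and little of all 3 genes gives a ratio over 1 as well.

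The genes whose pattern was most like that of each member were sought over 38 units of library and subcluster, by Pearson's r of log2(CPM + 10) among 5580 genes, as a description without a test. The units share libraries, and 9 of them are neutrophils. For Clec4n they were Il1rn, the interleukin-1 receptor antagonist (r = 0.93), Srxn1 (0.90), Rgcc, Vegfa and Cxcl2 (0.89). For Clec4e they were Slc2a1, the main glucose transporter (0.96), Slc16a3, a lactate exporter (0.95), Sh2b2 (0.94), Smox and Cd14 (0.93). For Clec4d they were Tnfaip2, Sgms2 and Grina (0.93), Rab20 (0.92) and Sntb2 (0.91). For Clec4b1 they were Irf4, a transcription factor of some dendritic cells (0.82), Trerf1 (0.80), Rras2 (0.78), Tmem176b (0.77) and Tmem176a (0.76).

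Between members r was 0.84 for Clec4n with Clec4e, 0.78 for Clec4n with Clec4d and 0.89 for Clec4e with Clec4d. Clec4b1 gave -0.40, -0.54 and -0.70 with Clec4n, Clec4e and Clec4d, and -0.17, -0.19 and -0.43 over the 29 units without neutrophils, in which it is close to absent. Over those 29 units Il1rn (0.96), Vegfa (0.95) and Cxcl2 (0.91) stayed among the 5 genes most like Clec4n, and Slc2a1 (0.95) and Slc16a3 (0.94) among those most like Clec4e. For Clec4d Sntb2 (0.91) stayed, and Msr1, a scavenger receptor, came first (0.95). For Clec4b1 Irf4 (0.70), Rras2 (0.68) and Trerf1 (0.66) stayed, beside St8sia6 (0.70). Part of each list therefore depended on whether neutrophils were included.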

How the data were processed

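The authors deposited raw UMI counts for 41191 cells and a cell annotation with each cell's library, total count, mitochondrial percent, class and subcluster. Per the submitters' processing notes Cell Ranger 3.0.0, Seurat 3.0 and mm10 were used, with no role stated; filters on cells were not given in the sources used here. Each cell's counts summed to its deposited total. The lowest number of detected genes was 201 and the highest mitochondrial percent 24.98. No doublet caller was run. No count model was run, since each group is 1 library. Counts were summed per library and cell group and scaled per 1000000. Log2 ratios had 0.5 counts added to each sum, with exact conditional binomial 95% intervals; intervals and limits for a count of 0 (3 counts) cover counting error only. Groups of under 50 cells got no level. C9 and BP were left out of the classes. Thinning used seed 1. Calls were checked on simulated counts. Named genes were the members, up to 4 genes of each list and direction by size, and the 5 most alike. Members and lists were chosen with earlier results of these data known. Genes given at levels with no 2-fold call were chosen after their values were seen. Alternatives covered offset, count minimum, scaling, thinning, mitochondrial share, high-UMI cells, subcluster mix, C9, BP, neutrophil markers, N3 and shared barcodes; the last pair were added after seeing the data. Tools were Python 3.11.15, numpy 2.4.6, scipy 1.17.1, pandas 2.3.3 and matplotlib 3.10.9.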

Additional observations from a re-analysis of the deposited data

Results flagged for a closer look

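Each value here is a log2 ratio whose counting interval lay on one side of 0 in one setting and on the other side in its counterpart. With 1 library in each group these differences were not tested. Silk against sponge gave, at 2 and at 4 weeks, 0.75 and -0.34 for Clec4n and -0.57 and 1.43 for Clec4b1 in Mo-Mac cells, and 0.24 and -0.77 for Clec4n and 0.16 and -0.49 for Clec4d in neutrophils. Under the alternatives the neutrophil values at 2 weeks ranged from 0.04 to 0.28 for Clec4n and from -0.04 to 0.24 for Clec4d. The medians of all genes tested in neutrophils, with 10 CPM added, were 0.15 and -0.33. Within C7 silk against sponge gave 0.77 and -0.21 for Clec4n, 0.47 and -0.55 for Clec4e and -0.91 and 1.62 for Clec4b1. Within C9, where the silk 4-week value rests on 9 UMIs, it gave 0.39 and -2.88 for Clec4n, and within N1 it gave 0.19 and -0.88 for Clec4e. The comparison of 4 with 2 weeks gave, in sponge and in silk, 0.17 and -0.92 for Clec4n in Mo-Mac cells, and 0.58 and -0.44 for Clec4n and 0.39 and -0.25 for Clec4d in neutrophils. Within C7 it gave 0.22 and -0.76 for Clec4n and 0.33 and -0.68 for Clec4e, and within N1 it gave 0.43 and -0.64 for Clec4e. Silk at 4 weeks enters every one of these pairs of member ratios, always through the second value. It is the smallest library, with 1873 cells and 69 neutrophils.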

How the results depend on the processing

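Each comparison was recomputed under the alternatives, and 108 of 112 counts of members past 2-fold were within 1.5 times the reported count. In Mo-Mac cells of silk at 4 against 2 weeks the count went from 0 to 1 without the count minimum (Clec4b1), without cells that carried neutrophil markers (Clec4n) and with thinned cells (Clec4n). In neutrophils of silk against sponge at 4 weeks it went from 0 to 1 under median-of-ratios size factors (Clec4n). Of 412 alternative log2 ratios 403 kept their sign. The others lay near 0. They included Clec4d in Mo-Mac cells of silk against sponge at 2 weeks, which ranged from -0.10 to 0.13, and Clec4n in sponge at 4 against 2 weeks, at -0.05 with the same subcluster mix. With thinned cells Clec4b1 gave -1.17 for sponge at 4 weeks and -1.86 for silk at 2 weeks against the control, and 2.09 for silk against sponge at 4 weeks. The cause was not tested. Without N3, Clec4e in neutrophils of silk at 4 against 2 weeks gave -0.70. The same subcluster mix could not be fitted for granuloma against control, since no subcluster of the class had 50 cells in both. No paired analysis was possible because each group is 1 library. Depth limits Clec4b1 throughout: no Mo-Mac library of the granulomas held more than 496 of its UMIs.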
